A study of Mus musculus with 25 samples.

Results

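Dppa4, Utf1 and Lin28a are genes of the pluripotent state, and this account follows every listed chromatin contact of the 10 kb bins that name them. The bins were found through the gene names that the authors attached to the bins of their contact lists from TKO cells, and every bin pair touching such a bin was taken from all 9 contact lists. Each gene was named in 1 bin. The 3 bins gave 28 of the 493983 distinct bin pairs of the series, 6 for Dppa4, 11 for Utf1 and 11 for Lin28a, and these 28 pairs made up 69 of the 912901 listings.

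The series holds 25 mouse libraries, 21 from HiChIP and 4 from Hi-C. Hi-C records which stretches of DNA touch in the nucleus, and HiChIP keeps those touching stretches that an antibody pulls down. The antibodies recognised KLF4 or H3K27ac, acetylated histone found at promoters and enhancers in use. The fibroblast groups were mouse embryonic fibroblasts (MEF) from rtTA3-OKSM embryos of day E13.5, heterozygous for an Oct4-GFP reporter, for the cassette of reprogramming factors (OKSM: Oct4, Klf4, Sox2 and c-Myc) and for rtTA3, the activator that doxycycline switches on. They were taken at passage 3 for H3K27ac HiChIP (2 libraries) and Hi-C (2 libraries). The same kind of fibroblast, kept with doxycycline and ascorbic acid, gave the KLF4 HiChIP libraries of day 3 (3 libraries, unsorted cells) and day 6 (4 libraries, sorted for the surface marker SSEA1, per the series text). The reprogramming groups thus carry an induced KLF4 transgene. Embryonic stem (ES) cells were of the V6.5 line in 2i medium and gave 2 H3K27ac, 4 KLF4 and 2 Hi-C libraries. The TKO samples were also labelled V6.5 cells in 2i, without doxycycline (0 h, 3 libraries) or with it for 24 h (3 libraries), and the abbreviation is not spelled out in the labels. Cells were fixed with 1% formaldehyde.

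Dppa4 encodes a chromatin-associated protein that acts together with its relative Dppa2, the neighbouring gene. Utf1 encodes a chromatin-bound protein of undifferentiated stem cells, and Lin28a encodes an RNA-binding protein that blocks the maturation of let-7 microRNAs. Enhancers are brought close to the promoters they act on by folding of the chromatin fibre, mostly within a topologically associating domain (TAD), a stretch of chromosome whose parts contact each other more than they contact the neighbouring stretches. KLF4 is a zinc-finger factor that binds GC-rich promoters and enhancers of ES cells.

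The Dppa4 bin lay at chr16:48280001-48290000, and the RefSeq bounds of the gene (GeneID 73693, 48283735 to 48294292, assembly GRCm38.p6) ran from this bin into the next. The Utf1 bin lay at chr7:139940001-139950000 and held the whole gene (GeneID 22286, 139943856 to 139945112) with one end of Kndc1, which spans 139894696 to 139941540. The Lin28a bin lay at chr4:134010001-134020000. Lin28a (GeneID 83557, 134003330 to 134019196) reached from it into the bin to its left, which the authors' annotation names for Dhdds, a gene of dolichol synthesis. The annotation also names Gm13061 in the Lin28a bin. All 3 bins carried an H3K27ac ChIP peak at both 0 h and 24 h in the authors' annotation of the TKO lists. A 10 kb bin does not separate a promoter from the rest of such a gene, so each pair is a contact of a bin and not of a promoter.

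RefSeq promoter sequences (build GRCm38.p6) were matched for Utf1 and Lin28a among the 3 genes, and for Dhdds, whose bin contacted the Lin28a bin in 5 lists. They are shown because KLF4 contacts of ES cells touch the bins that hold them. Each line gives the 250 bases before the gene start that the table uses, 5′ to 3′ on the gene's strand, and capitals mark motif matches. Utf1 is on the plus strand at chr7:139943606-139943855, Lin28a on the minus strand at chr4:134018817-134019066 and Dhdds on the minus strand at chr4:134000883-134001132. The Lin28a window lies wholly inside the RefSeq bounds of the gene given above. The Dhdds window overlaps the RefSeq bounds of that gene, which end at 134000957. For both, the start used is thus not the outer bound of the gene.
Utf1: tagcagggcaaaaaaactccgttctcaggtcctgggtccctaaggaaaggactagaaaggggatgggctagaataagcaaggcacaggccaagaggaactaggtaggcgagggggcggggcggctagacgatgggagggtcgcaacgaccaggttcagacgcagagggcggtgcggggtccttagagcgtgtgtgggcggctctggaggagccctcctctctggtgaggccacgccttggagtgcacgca
Lin28a: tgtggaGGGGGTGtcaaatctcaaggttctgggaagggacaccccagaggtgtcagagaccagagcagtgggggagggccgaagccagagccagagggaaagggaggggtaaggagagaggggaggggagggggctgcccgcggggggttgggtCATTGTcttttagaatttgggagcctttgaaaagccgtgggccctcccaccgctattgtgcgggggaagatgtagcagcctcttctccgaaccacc
Dhdds: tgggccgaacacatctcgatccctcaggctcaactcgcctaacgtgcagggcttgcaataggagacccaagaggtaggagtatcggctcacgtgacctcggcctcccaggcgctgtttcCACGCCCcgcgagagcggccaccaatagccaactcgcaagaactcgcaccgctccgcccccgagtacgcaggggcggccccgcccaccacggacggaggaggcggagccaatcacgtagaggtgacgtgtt
The GC content was 61.6% for Utf1, 61.2% for Lin28a and 64.8% for Dhdds. The letters searched on both strands were a core of KLF sites (GGGNGTG), the octamer bound by OCT factors (ATGCAAAT) and a core of SOX sites (CATTGT), and no matches overlapped. The KLF core was found 1 time in the Lin28a window, with its first base 244 bases before the start used. It was found 1 time on the opposite strand in the Dhdds window, 131 bases before the start used. The SOX core was found 1 time in the Lin28a window, 96 bases before the start used. Among 32851 mouse promoter windows of the same length, 26.1% held the KLF core, 10.7% the SOX core and 1.601% the octamer. These matches are letters in a window and not binding sites, and the absence of a match before Utf1 says only that these letters are not in its window.

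Strength is given as the authors' CPM, the count scaled to the contact total of the same chromosome, so CPM values of genes on different chromosomes are not on one scale. Every listed HiChIP pair had an authors' p-value under 0.1, and every pair of the H3K27ac lists a CPM above 3 in each library. The KLF4 lists held lower values, down to 0 in single libraries. The value of an unlisted pair is not known. The lists held between 4047 (day 6 KLF4) and 93248 (TKO 0 h H3K27ac) pairs in HiChIP, against 228083 in MEF and 318622 in ES Hi-C. HiChIP depth ran from 48664847 to 180568707 contacts per library. Of 6 ES marker genes 4 had an annotated bin, and all 4 had more listed H3K27ac pairs in ES cells than in MEF. Of 12 fibroblast marker genes 7 had one, and 6 of the 7 had fewer in ES cells. Over all genes with a bin, 65.4% had more in ES cells and 14.7% fewer. Gene names come from the TKO lists alone, so a gene without a listed contact in TKO cells could not enter these counts.

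In H3K27ac HiChIP the Dppa4, Utf1 and Lin28a bins had no listed contact in MEF and 17 in ES cells, 5 for Dppa4, 7 for Utf1 and 5 for Lin28a. Over the 12695 genes with an annotated bin, the median was 1 listed pair in MEF and 3 in ES cells. These genes, the members included, were found through H3K27ac contacts of TKO cells, labelled as the same ES line. Genes with contacts in MEF alone are thus left out, and the shares below lean towards ES cells. Having at least 1 pair in ES cells and none in MEF was the case for 29.2% of the 12695 genes, and 42.3% had none in MEF. At least 5 in ES cells and none in MEF, the pattern of each of the 3 genes, was met by 8.57% of genes. The cut-off of 5 is the lowest count among the 3 genes, so they meet it by construction. The ES list was also the longer, with 75466 pairs against 60870 in MEF. Since no pair of these genes stood in both lists, no strength was tested between MEF and ES cells. In H3K27ac HiChIP, more mark at an anchor and more frequent contact cannot be told apart.

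**Figure D1:**
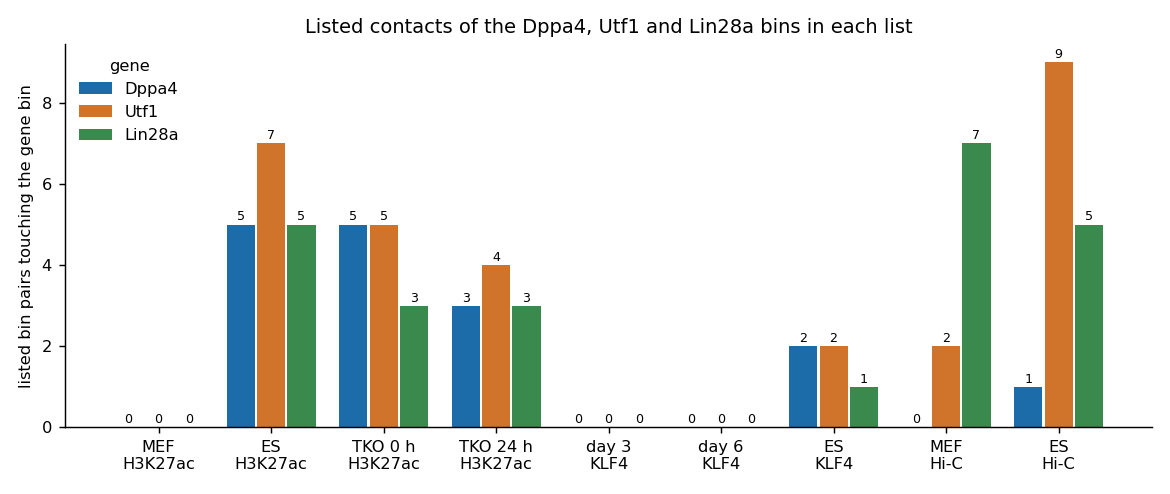
Number of listed bin pairs (vertical axis) that touch the Dppa4, Utf1 or Lin28a bin in each of the 9 contact lists (horizontal axis), 1 bar per gene and list. The bars are at 0 in the MEF H3K27ac, day 3 KLF4 and day 6 KLF4 lists, and at 5, 7 and 5 in the ES H3K27ac list.

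In KLF4 HiChIP none of the 3 bins had a KLF4 contact at day 3 or at day 6, and in ES cells Dppa4 had 2, Utf1 had 2 and Lin28a had 1. At least 1 pair in ES cells and none at day 3 and day 6 was met by 23.4% of all genes, while 57.6% of genes had none at either day and 57.4% had at least 1 in ES cells. The day 3 and ES lists were of like length, 23720 and 24589 pairs, while the day 6 list had 4047. All 5 KLF4 pairs of ES cells were also in the ES H3K27ac list, where they made up 29.4% of the 17, and in both TKO lists. Meeting both the H3K27ac and the KLF4 pattern (at least 5 ES H3K27ac pairs, at least 1 ES KLF4 pair and none in MEF, at day 3 or at day 6) was the case for 3.88% of genes. These cut-offs are the lowest counts of the 3 genes themselves, so this share is no test of how unusual they are.

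The neighbourhoods of the 3 genes were not alike. Within 100 kb to either side of the Dppa4 bin, no H3K27ac pair was listed in MEF and no KLF4 pair at day 3 or day 6, against 15 H3K27ac and 5 KLF4 pairs in ES cells. The window of Lin28a had 0, 0 and 0 against 19 and 2. Around Utf1 the MEF H3K27ac list held 9 pairs, all at 10 kb or more to the right of the gene bin, and 6 of these touched the bin of Adam8, a gene for a membrane protease. The strongest of the 9 joined the bins at 30 kb and 50 kb, at a mean of 7.62 CPM. The day 6 KLF4 list held 1 pair there, between the bin of Tubgcp2 and Zfp511 and the bin of Msx3. So the MEF H3K27ac list did hold contacts next to Utf1, none of which reached its bin, whereas the windows of Dppa4 and Lin28a were empty in that list. The share of all genes with an empty window was not taken. In MEF Hi-C the Dppa4 window held 1 pair, against 32 for Utf1 and 43 for Lin28a. In ES Hi-C the windows held 21, 59 and 56. The sparse Dppa4 window of MEF was thus not limited to H3K27ac.

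**Figure D2:**
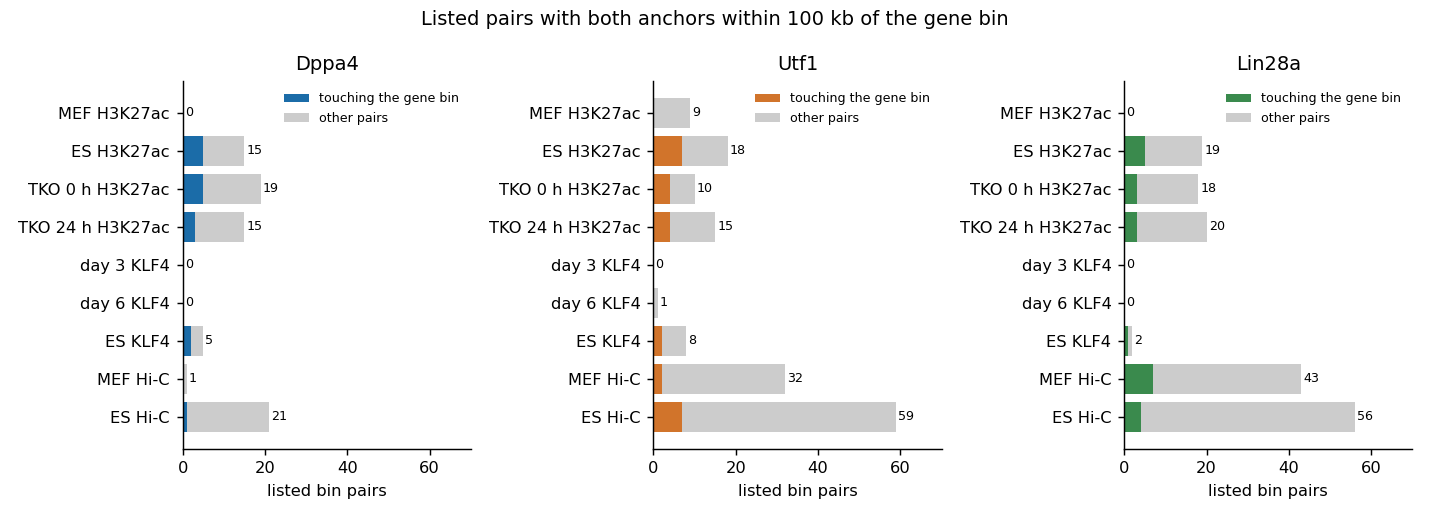
Listed bin pairs (horizontal axis) with both anchors within 100 kb of the Dppa4, Utf1 or Lin28a bin, for each list (vertical axis); the coloured part touches the gene bin and the grey part does not. The MEF H3K27ac bars are 0, 9 and 0, and the ES H3K27ac bars 15, 18 and 19.

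Dppa4 had its strongest HiChIP contact with the bin 20 kb to its right (chr16:48300001-48310000), which lies between Dppa4 and Dppa2 and carried H3K27ac peaks at 0 h and 24 h. Its H3K27ac strength in ES cells was 17.4 and 17.2 CPM, a mean of 17.3 ± 0.175 (SD, n = 2). In TKO cells at 0 h it was 15.1, 24.7 and 25.4 CPM, a mean of 21.7 ± 5.75 (SD, n = 3). With KLF4 it was 8.72, 11.7, 5.47 and 5.35 CPM in the 4 ES libraries. A chi-square test of counts did not tell libraries 1 and 2 apart (p = 0.239), nor libraries 3 and 4 (p = 0.989), so they count as 2 replicates. Their mean was 7.61 ± 3.13 CPM (SD, n = 2). This pair ranked 38 of 758 pairs of its distance on the chromosome in ES H3K27ac, 33 of 875 at TKO 0 h and 37 of 339 in ES KLF4. In the authors' deposited table, 5.9% of all ES H3K27ac pairs and 7.74% of all TKO 0 h pairs had an FDR under 0.1. Of the pairs of the 3 genes, 1 of 17 and 1 of 13 did, close to those shares. In both lists this was the contact of Dppa4 at 20 kb, with an FDR of 0.00225 in ES H3K27ac and 1.55e-05 at TKO 0 h. At TKO 24 h, where it ranked 90 of 826, and in ES KLF4 the same table gave it as 1, as it did for every other listed pair of these genes.

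The other HiChIP contacts of Dppa4 ended within 40 kb, and 4 of the 5 in ES cells lay to the right, towards Dppa2. The Dppa2 bin, 30 kb away, was in the same 4 lists as the intergenic bin. Its H3K27ac strength was 7.90 and 7.06 CPM in ES cells and 9.91, 7.54 and 6.74 CPM at TKO 0 h. Its KLF4 strength in ES cells was 6.01, 6.61, 4.10 and 4.84 CPM. Both adjacent bins were listed in ES cells, that on the left at 8.22 and 7.86 CPM and that on the right, which holds the rest of the gene, at 10.2 and 8.98 CPM. The weakest, with the bin 40 kb away, had 8.22 and 4.01 CPM, and its libraries differed the most. The 5 bins that Dppa4 contacted in ES H3K27ac also contacted each other. Of the 10 pairs possible among them 7 were listed in ES cells, 9 at TKO 0 h, 8 at TKO 24 h, 2 with KLF4 in ES cells and none in MEF. The same count was 7 of 28 for the 8 HiChIP partner bins of Utf1 in ES H3K27ac, with 3 in MEF, and 3 of 10 for the 5 of Lin28a, with none in MEF. Partner bins of Dppa4 lay within 40 kb, while those of Utf1 reached to 110 kb and those of Lin28a to 100 kb. The pairs counted are thus of unlike distances, and the genes cannot be compared by these counts. Dppa2 itself had 0 listed H3K27ac pairs in MEF and 8 in ES cells, and 0, 0 and 2 KLF4 pairs at day 3, day 6 and in ES cells.

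Utf1 had its strongest H3K27ac contact with the adjacent bin on the right (chr7:139950001-139960000), annotated for Gm16201 and Gm2044 and with H3K27ac peaks at both times. Its strength was 12.4 and 12.8 CPM in ES cells, a mean of 12.6 ± 0.255 (SD, n = 2). At TKO 0 h it was 10.7, 8.71 and 10.03 CPM. In ES KLF4 it was 6.23, 5.05, 7.76 and 4.86 CPM. The ES libraries lay above all 3 TKO 0 h libraries, but those lists come from separate tables and were not tested against each other. It ranked 179 of 1386 adjacent-bin pairs of chromosome 7 in ES H3K27ac and 501 of 854 in ES KLF4, so the KLF4 contact was not among the strong ones of its distance.

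The Utf1 contact in the most lists, 6 of 9, was with the adjacent bin on the left (chr7:139930001-139940000), which lies inside Kndc1 and has no annotated H3K27ac peak. Its H3K27ac strength was 7.29 and 7.65 CPM in ES cells and 6.27, 6.80 and 6.84 CPM at TKO 0 h. With KLF4 it was 5.59, 6.85, 5.51 and 3.55 CPM. Among adjacent-bin pairs of chromosome 7 it ranked 649 of 1386 in ES, 1562 of 1815 in TKO 0 h and 1136 of 1637 in TKO 24 h H3K27ac. Its rank was 702 of 854 in ES KLF4, 2913 of 3434 in MEF Hi-C and 3265 of 3361 in ES Hi-C. So it was not among the strong contacts of its distance. The other 5 ES H3K27ac contacts of Utf1 were weaker, with means between 3.81 and 5.14 CPM. They reached the bins 20 kb and 30 kb to the left, both inside Kndc1, and 20 kb, 30 kb and 50 kb to the right. That at 50 kb was the Adam8 bin, the anchor of the MEF pairs above, at 3.54 and 4.09 CPM. The longest H3K27ac contact of Utf1, at 110 kb, was listed at TKO 0 h alone, with 3.14, 3.19 and 3.42 CPM, just over the filter of 3 CPM.

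Lin28a had its strongest HiChIP contact with the Dhdds bin on its left, into which Lin28a itself runs. The strength was 8.74 and 9.56 CPM in ES H3K27ac, a mean of 9.15 ± 0.582 (SD, n = 2). It was 7.27, 9.69 and 10.5 CPM at TKO 0 h. In ES KLF4, where it was the only contact of Lin28a, it was 4.41, 5.18, 5.98 and 4.94 CPM, ranking 496 of 605 pairs of its distance on the chromosome. This pair joins the bins of the Lin28a and Dhdds promoter windows printed above. Part of Lin28a lies in each bin, so contacts within the gene are counted with those between the genes.

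Lin28a also had the longest H3K27ac contact of the 3 genes in ES cells, 100 kb to the right, with a bin (chr4:134110001-134120000) inside the RefSeq bounds of Ubxn11 that had H3K27ac peaks at both times. It was listed in all 3 H3K27ac lists of ES-type cells and in no other list. Its strength was 5.01 and 7.05 CPM in ES cells, 4.005, 3.991 and 6.68 CPM at TKO 0 h and 4.11, 4.87 and 4.47 CPM at TKO 24 h. These values are low, yet the pair ranked 4 of 35 at this distance on chromosome 4 in ES cells, 19 of 54 at TKO 0 h and 14 of 28 at TKO 24 h. The other ES contacts of Lin28a were at 20 kb on either side and at 60 kb to the right, with means of 4.72, 5.35 and 3.79 CPM. The bin at 60 kb lies inside Crybg2.

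**Figure D3:**
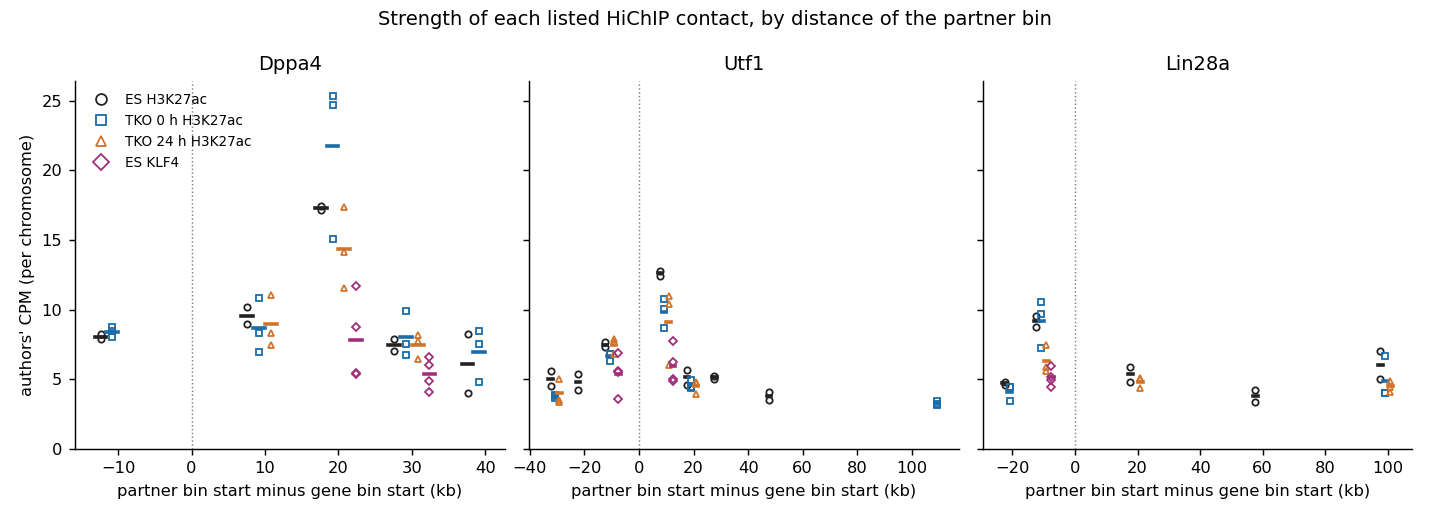
Authors' CPM (vertical axis) of every listed HiChIP contact of Dppa4, Utf1 and Lin28a against the distance of the partner bin (horizontal axis, kb); symbols are libraries, dashes are means over libraries, and symbols are shifted sideways by list. The Dppa4 contact at 20 kb reaches 25.4 CPM at TKO 0 h, Utf1 peaks at 10 kb, and Lin28a has contacts at 100 kb.

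The comparison of TKO cells at 0 h and after 24 h of doxycycline asks how contacts of ES-type cells change with the treatment. Of the 13 contacts of the 3 genes at 0 h, 9 were also listed at 24 h (69.2% of those at 0 h and 90% of the 10 at 24 h). Over all pairs, 67728 were in both lists, of 93248 at 0 h and 84256 at 24 h. Dppa4 had 5 listed at 0 h and 3 at 24 h, and Utf1 had 5 and 4. Lin28a had 3 at both times, of which 2 were shared. Over all genes, 48.4% had fewer pairs at 24 h, where the list was shorter. The 4 contacts listed at 0 h alone were those of Dppa4 with its left neighbour and with the bin at 40 kb, of Utf1 at 110 kb and of Lin28a at 20 kb on the left. The contact listed at 24 h alone was that of Lin28a with the bin 20 kb to the right, at 4.35, 5.03 and 5.08 CPM, and this contact was also in the ES list.

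None of the 9 shared contacts passed edgeR's quasi-likelihood test at an adjusted p under 0.05, and 2 had an unadjusted p under 0.05. DESeq2 gave none an unadjusted p under 0.05. It gave an adjusted p to the contact of Dppa4 at 20 kb alone (DESeq2 adjusted p = 0.499), so the others could not be called by it. Over all 67723 pairs tested, edgeR called 2.8%, with 407 higher and 1487 lower at 24 h. A chi-square test of counts did not tell libraries 1 and 3 of TKO 24 h apart (p = 0.0991), and they count as 1 replicate.

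The contact of Dppa4 with the bin at 20 kb had 15.1, 24.7 and 25.4 CPM at 0 h, from 64, 82 and 79 counted contacts, and 14.1, 17.4 and 11.6 CPM at 24 h, from 37, 68 and 36. One 0 h library lay among the 24 h libraries, so the groups overlapped. The log2 change was -0.43 ± 0.16 (SE, edgeR adjusted p = 0.123). Leaving out 1 replicate at a time moved this value over a wide range. Without replicate 1 of TKO 0 h, the low one, it was -0.66 with an edgeR adjusted p of 0.0146. It was -0.33 without replicate 2 (edgeR adjusted p = 0.447), -0.31 without replicate 3 (0.487), and -0.20 without the joined libraries 1 and 3 of TKO 24 h (0.823). Without replicate 2 of TKO 24 h it was -0.62 (edgeR adjusted p = 0.0633). Scaled by contact totals alone it was -0.54 with an edgeR adjusted p of 0.0265. Over all tested pairs the latter scaling took the median log2 change from 0.0056 to -0.099 and gave 183 higher and 3019 lower calls. Relative to those medians the contact of Dppa4 differed little between the scalings.

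The contact of Lin28a with the Dhdds bin had 7.27, 9.69 and 10.5 CPM at 0 h and 5.56, 7.47 and 5.89 CPM at 24 h, again with 1 library of each group in the range of the other. Its log2 change was -0.39 ± 0.19 (SE, edgeR adjusted p = 0.311). The 100 kb contact of Lin28a had a log2 change of 0.01 ± 0.23 (SE). For Dppa4 the log2 changes were 0.06 ± 0.22 (SE) with the adjacent bin on the right and -0.03 ± 0.23 (SE) with the Dppa2 bin.

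The 4 shared contacts of Utf1 had log2 changes between 0.06 and 0.33, with SEs from 0.18 to 0.25. The contact with the bin on the left was 6.27, 6.80 and 6.84 CPM at 0 h and 6.79, 7.91 and 7.68 CPM at 24 h, a log2 change of 0.33 ± 0.20 (SE, edgeR adjusted p = 0.503). The contact with the bin on the right had 6.00, 10.4 and 10.97 CPM at 24 h, of which 1 library lay below and 1 above all 3 libraries of 0 h. In simulated counts for the same 67723 pairs, 78.5% of 2-fold changes were recovered, so a smaller change could go undetected.

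**Figure D4:**
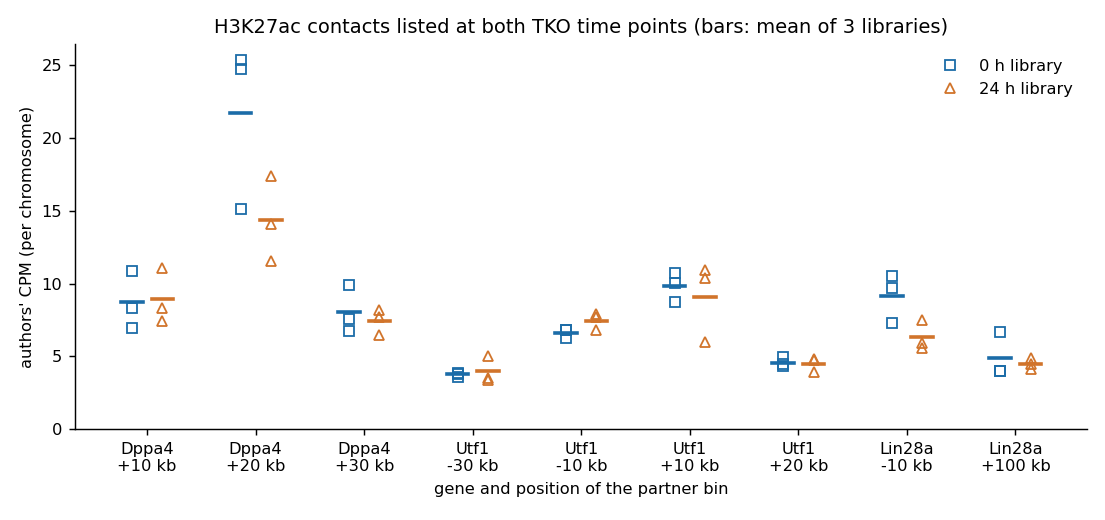
Authors' CPM (vertical axis) of the 9 contacts of Dppa4, Utf1 and Lin28a listed at both TKO time points (horizontal axis), with squares for the 3 libraries of 0 h, triangles for the 3 of 24 h, and dashes for their means. The Dppa4 contact at 20 kb has 1 low library of 0 h, at 15.1 CPM, and no contact passed the test.

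Since the bin 20 kb to the right of Dppa4 had the strongest contact of this gene, its other listed contacts were read as well, a choice made after the values were seen. It had 8 pairs listed at both TKO times, the Dppa4 contact included, and all 8 had log2 changes below 0. These pairs share an anchor and are not independent. By edgeR 2 of the 8 fell, where 2.2% of all tested pairs did. The bin was picked for strength, the 0 h values included, and such a choice favours a fall at 24 h. The 2.2% covers pairs of every strength, so no excess can be read from the 2 of 8. The contact with the bin that holds the rest of Dppa4 had 20.3, 28.7 and 24.1 CPM at 0 h and 13.0, 18.2 and 13.2 CPM at 24 h, a log2 change of -0.57 ± 0.15 (SE, edgeR adjusted p = 0.0126). Every 24 h library lay below every 0 h library. The contact with the bin at 40 kb, on the far side of Dppa2, had 14.4, 13.9 and 15.1 CPM at 0 h and 5.72, 7.17 and 8.99 CPM at 24 h, a log2 change of -0.87 ± 0.20 (SE, edgeR adjusted p = 0.00196), again without overlap. The contact with the Dppa2 bin was 22.4, 24.7 and 23.7 CPM at 0 h and 24.8, 18.9 and 10.3 CPM at 24 h, with a log2 change of -0.31 (edgeR adjusted p = 0.299).

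Both calls were lost in some alternatives. Without the joined libraries 1 and 3 of TKO 24 h, which leaves 1 library at that time assumed to vary like the 0 h group, the log2 change was -0.33 (edgeR adjusted p = 0.616) for the contact with the rest of Dppa4 and -0.93 (0.0864) for that with the bin at 40 kb. Without replicate 2 of TKO 0 h the contact with the rest of Dppa4 had a log2 change of -0.45 (edgeR adjusted p = 0.185). DESeq2 gave it a log2 change of -0.56 (adjusted p = 0.219) and the other -0.88, with an unadjusted p of 0.0029 and no adjusted p.

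Hi-C, which uses no antibody, listed contacts of Utf1 and Lin28a in both cell types and of Dppa4 in ES cells alone. MEF and ES cells had 0 and 1 listed Hi-C pairs for Dppa4, 2 and 9 for Utf1, and 7 and 5 for Lin28a. More pairs in ES cells, as for Dppa4 and Utf1, was the case for 73.5% of all genes, and fewer, as for Lin28a, for 11.7%. The ES list was the longer one, and the median gene had 3 pairs in MEF and 6 in ES cells. The Dppa4 contact lay at 80 kb to the right with counts of 13 and 16, and was in no H3K27ac or KLF4 list. The bin pairs of Dppa4 that were strong in H3K27ac HiChIP were thus not among the listed Hi-C pairs.

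For Utf1 the MEF Hi-C pairs were the adjacent bin on the left, with counts of 39 and 31, and the bin 20 kb to the left, with 21 and 33. Both lie inside Kndc1. In ES cells these 2 pairs had counts of 30 and 54, and of 39 and 44. The other 7 ES pairs reached from 30 kb on the left to 130 kb on the right, the pair at 130 kb with counts of 16 and 18. No listed Hi-C contact of Utf1 in MEF pointed to the right, while 6 of 9 did in ES cells.

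For Lin28a the MEF Hi-C pairs included both adjacent bins, with counts of 47 and 33 on the left and 32 and 39 on the right, and reached to the Cd52 bin at 80 kb with 17 and 14. The 5 ES pairs of Lin28a all lay to the right, from 40 kb to 110 kb, and none was with an adjacent bin. The Dhdds contact, listed with H3K27ac and KLF4 in ES cells, was thus in the MEF and not in the ES Hi-C list. The pair at 40 kb had counts of 21 and 16 in MEF and 22 and 23 in ES cells, and the pair at 60 kb had 17 and 13 against 16 and 23.

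**Figure D5:**
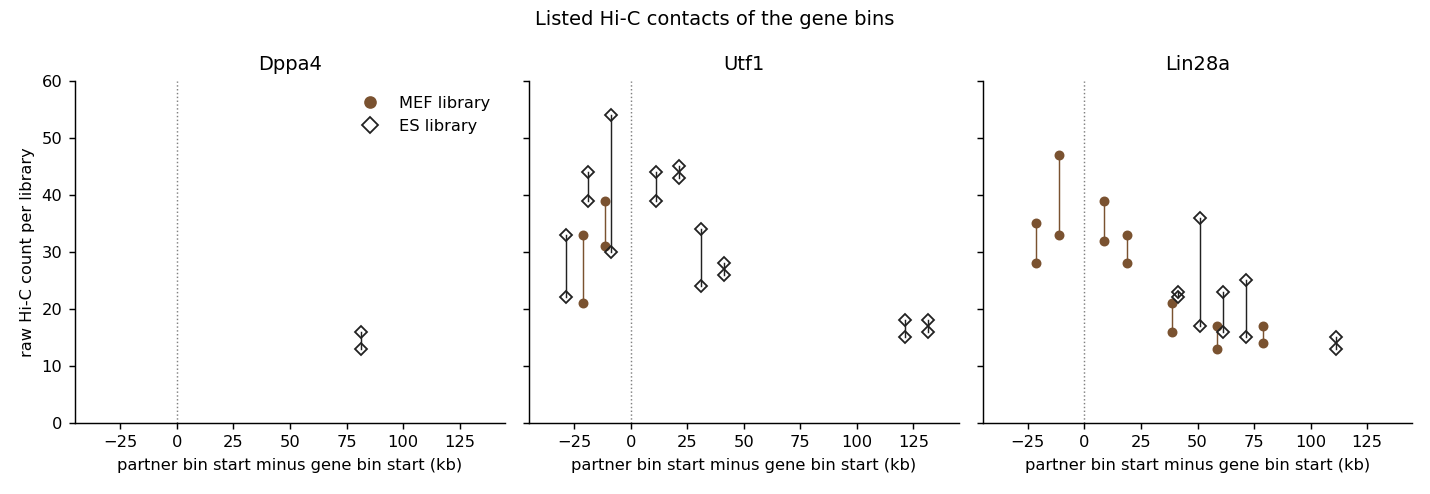
Raw Hi-C counts per library (vertical axis) of the listed contacts of Dppa4, Utf1 and Lin28a against the distance of the partner bin (horizontal axis, kb), filled circles for MEF and open diamonds for ES libraries, with a line joining the 2 libraries of a group. Dppa4 has 1 pair, Utf1 has pairs to the right in ES cells alone, and the Lin28a pairs within 20 kb are in MEF alone.

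The 4 contacts in both Hi-C lists did not pass edgeR's quasi-likelihood test, where 0.0289% of the 124544 tested pairs did, and none had an unadjusted p under 0.05 in edgeR or DESeq2. The log2 changes from MEF to ES cells were 0.23 ± 0.26 (SE) for Utf1 with the bin 20 kb to the left and -0.13 ± 0.25 (SE) with the adjacent bin. For Lin28a they were -0.10 ± 0.29 (SE) at 40 kb and -0.01 ± 0.30 (SE) at 60 kb. With 26% of simulated 2-fold changes recovered among as many pairs, a difference of that size could be missed.

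Between the assays, 7 of the 17 ES H3K27ac contacts were in the ES Hi-C list (41.2% of the H3K27ac and 46.7% of the 15 Hi-C contacts) and 6 were in the MEF Hi-C list (35.3% and 66.7%). The MEF and ES Hi-C lists shared 4 contacts of these genes, 44.4% of the MEF and 26.7% of the ES ones. Over all pairs these lists shared 127440, of 228083 in MEF and 318622 in ES cells. For the other overlaps given here, and for KLF4 with H3K27ac in ES cells, the share over all pairs was not taken. ES and TKO 0 h H3K27ac shared 12 (70.6% and 92.3%).

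Domains around the 3 genes were drawn differently in the deposited TAD lists of the cell types, each a single set without replicate values. The Utf1 bin lay in a MEF domain of 240 kb (chr7:139920001-140160000) and in an ES domain of 3320 kb. The contact of Utf1 with the bin 30 kb to the left crossed the edge of the MEF domain, and the other 10 of 11 did not. That partner bin ends at 139920000, directly at the edge, and the precision of the bounds is not stated. The contact was listed in ES-type cells alone, and a link to the edge was not tested. The Dppa4 bin lay in domains of 2120 kb and 3520 kb and the Lin28a bin in domains of 2000 kb and 680 kb, in MEF and ES cells. All contacts of Dppa4 and Lin28a stayed inside the domain of either cell type.

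At the partner bins of the TKO contacts, H3K27ac peaks were annotated at both times in 3 of 5 for Dppa4, 1 of 5 for Utf1 and 2 of 4 for Lin28a. A peak at 0 h alone was given for the Dppa4 partner at 10 kb, and one at 24 h alone for the Utf1 partner at 20 kb. The contacts of those bins had log2 changes of 0.06 ± 0.22 (SE) and 0.11 ± 0.24 (SE).

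Other genes of pluripotency were counted in the same way from a list of 30, of which 26 had an annotated bin. All 26 had more listed H3K27ac pairs in ES cells than in MEF, and 22 had none in MEF, with medians of 0 and 8.5 pairs, where 65.4% of all genes had more. Dppa4, Utf1 and Lin28a, with 5, 7 and 5 pairs, lay below that median. Nanog had 1 and 23 pairs, and Tdgf1, a co-receptor for Nodal, had 0 and 14. In KLF4 HiChIP 22 of the 26 had more pairs in ES cells than at day 3, as did 39.2% of all genes, and the other 4 had as many. In TKO cells 15 had fewer pairs at 24 h, 8 more and 3 as many, where 48.4% of all genes had fewer and 23.8% more. In Hi-C 17 had more pairs in ES cells, 4 fewer and 5 as many, where 73.5% of all genes had more and 11.7% fewer.

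The genes most like each of the 3 in their counts over the 9 lists were taken by the Euclidean distance of log2(pairs + 1). Tfb1m had the same 9 counts as Dppa4, and Pramel6 and Camsap3 came next at distances of 0.471 and 0.679. For Utf1 they were Tsx, Gm38509 and Cul4b, at 0.514, 0.684 and 0.719. For Lin28a they were Dnajb13, Capn5 and Ccdc12, at 0.585, 0.697 and 0.706, the last tied with another gene.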

How the data were processed

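HiChIP and Hi-C contacts between 10 kb bins were analysed in 9 lists. Reads were aligned with Bowtie2 2.2.3 to mm10, per the submitters' processing notes; the contact caller and its test are not given in the sources used here. The authors deposited, per the file headers, a raw count, a CPM value, a distance-normalized ratio, and a p-value and FDR for each pair. The CPM is per chromosome, since count over CPM was 1 whole number per chromosome in HiChIP. In Hi-C the deposited signal named CPM is scaled by chromosome constants of unstated origin, so counts are printed. As the values show, the authors kept pairs with a p-value under 0.1 in HiChIP and 0.01 in Hi-C, and a value above 3 (all libraries of H3K27ac) or at least 15 (Hi-C). The deposited ratio was not used. The TAD files, as deposited by the authors, give bounds and a score of unstated meaning, which was not used.

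The genes and lists were chosen with earlier results of these data known. Named pairs are, per gene, the strongest in each list, that in most lists, the longest, and any that passed a test. Libraries of a group that a chi-square test of counts did not tell apart were joined: 1 and 3 of TKO 24 h, and 1 and 2 as well as 3 and 4 of ES KLF4. Day 6 KLF4, where no pair of libraries differed, was not joined, and no result uses its values per library. The labels do not say whether replicates were separate cultures, so p-values measure the spread between these samples. Same-numbered libraries did not deviate together (correlations from -0.007 to 0.005). TKO libraries of a time point differed little beyond counting noise, which can hide a shared deviation. With 2 Hi-C libraries per group the correlations can only be equal or opposite. Whether the numbers pair the libraries is thus not known, and the main fits did not pair them.

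Raw counts of pairs in both lists were tested with edgeR 4.0.16 in R 4.3.3 (glmQLFit, filterByExpr, TMM on contact totals in HiChIP and on count sums in Hi-C, Benjamini-Hochberg over all tested pairs, called at an adjusted p under 0.05), which was tested on simulated data. Alternatives were DESeq2 1.42.0, other scalings, no filter, a replicate block, separate libraries and leaving out each replicate. Pairs in 1 list were not tested. Tables were handled with Python 3.11.15, pandas 2.3.3 and matplotlib 3.10.9. PCR copies are not independent molecules, so errors of counting are lower limits. For Hi-C only the listed counts give a depth, 5576165 to 10015967 per library.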

Additional observations from a re-analysis of the deposited data

How the results depend on the processing

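The number of listed contacts of the 3 genes depended on the matching. Counting 1 bin to either side gave 2 in MEF, 30 in ES, 23 in TKO 0 h and 21 in TKO 24 h H3K27ac, 10 in ES KLF4, and 21 in MEF and 48 in ES Hi-C. Anchors at least 20 kb apart gave 8 at TKO 0 h, 6 at TKO 24 h and 2 in ES KLF4. A mean CPM of at least 5 gave 8 and 6 at TKO 0 h and 24 h. With the strongest 4047 pairs of each list, chosen after seeing the data, the counts were 1 in ES, 1 at TKO 0 h and 0 at TKO 24 h for H3K27ac, 1 in ES KLF4, and 0 in MEF and 0 in ES Hi-C. MEF H3K27ac, day 3 and day 6 stayed at 0 in all but the 2 MEF pairs above.

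In TKO cells 1 contact (Dppa4 at 20 kb) was called with contact totals, and 0 to 1 when a replicate was left out. Whether replicate numbers pair the libraries is not known. With the replicate block 0 contacts of the 3 genes were called in TKO and in Hi-C, as without it. The calls over all pairs went from 1894 to 2024 in TKO and from 36 to 76 in Hi-C. DESeq2 called 269 and 0 pairs, and leaving out a replicate 429 to 1328 and 0 to 111. Contact totals gave 3202 calls in TKO and the authors' scaling 61 in Hi-C. Joining TKO 0 h replicates 2 and 3 as well, chosen after seeing the data, gave 1774. No fit was made for the other 4 comparisons, where no contact of these genes was in both lists, so their alternatives were not run.

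Several log2 changes near 0 turned sign. With contact totals they were -0.041 (Dppa4 at 10 kb), -0.094 (Lin28a at 100 kb) and -0.045 (Utf1 at 10 kb on the right). With the replicate block the value was -0.0067 (Lin28a at 100 kb). Leaving out a replicate gave -0.19 to 0.31 (Dppa4 at 10 kb; -0.084 without replicate 2 of TKO 0 h), -0.14 to 0.20 (Dppa4 at 30 kb; 0.066 without libraries 1 and 3 of TKO 24 h), -0.11 to 0.26 (Lin28a at 100 kb) and -0.033 to 0.17 (Utf1 at 10 kb). In Hi-C the authors' scaling gave 0.024 and 0.12 (Lin28a at 40 kb and 60 kb). Leaving out a library there gave -0.29 to 0.11 (Lin28a at 40 kb) and -0.20 to 0.20 (Lin28a at 60 kb). For Utf1 it gave -0.049 to 0.59 at 20 kb on the left and -0.47 to 0.11 at 10 kb on the left. None of these passed the test, and the cause was not tested.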
